A study of Mus musculus with 2 samples.

Results

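Ectodysplasin signaling was read from 5 genes in single cells of newborn mouse back skin: the ligand *Eda*, its receptor *Edar*, the adaptor *Edaradd*, the second ectodysplasin receptor *Eda2r*, and the related receptor *Tnfrsf19*. They were taken by name from the 32285 genes of the deposited gene list, where each was present once, and 5 of 5 identifiers matched the GRCm38 annotation. The cells were tdTomato-positive keratinocytes sorted from the dermal fraction of back skin at P1, after the epidermis had been separated from it, so growing hair follicles (HFs) were enriched. There was 1 library with the genotype label WT and 1 labelled PADI4 cKO, both untreated and given as batch 1. The shared protocol describes the mice as K14-Cre with Padi4 fl/fl and the tdTOMATO reporter (Ai14), and the study's methods give the knockout as the K14-Cre;tdTomato line crossed to Padi4 fl/fl mice, so Cre and the reporter are part of the design in both groups. The floxed allele came from a B6.Cg line, and no other strain is given in the sources used here. K14-Cre acts in the epithelium of the skin and not in the dermal cells below it. The sources used here give neither the number nor the sex of the animals behind a library, and with 1 library per genotype no difference between genotypes could be tested.

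Ectodysplasin is a ligand of the TNF family that is made as a membrane protein and released by the protease furin. It binds EDAR on neighboring cells, EDAR recruits the adaptor EDARADD, and TRAF6, the TAB proteins and the IKK complex then pass the signal to NF-κB, whose own target genes include its brakes. Mice that lack the ligand, the receptor or the adaptor fail to form the first wave of hair follicles and have defects of teeth and sweat glands, and in the hair placode the receptor marks the epithelium that will grow down while the ligand lies under Wnt control. EDA2R is the receptor of the shorter ectodysplasin splice form, and TNFRSF19 (TROY) is a related receptor known from developing hair follicles.

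The 2 ligand forms differ by 6 bases at the end of an exon of *Eda*, at chrX:100395144-100395149 (GRCm38, plus strand), and this difference sets which receptor the protein can bind. Of the 9 coding transcripts in the annotation, 3 hold the 6 bases and 5 lack them. The stretch of 24 bases on either side is printed for a transcript of each form, with the 6 bases in capitals, because the counts of this series cannot separate them.
Eda-206, with the 6 bases: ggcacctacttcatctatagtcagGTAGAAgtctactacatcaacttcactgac
Eda-205, without the 6 bases: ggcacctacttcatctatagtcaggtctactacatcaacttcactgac
The 6 bases lie 3856 bases from the 3′ end of Eda-206, and the chemistry captures 3′ ends, so every *Eda* value is the sum of the forms for EDAR and for EDA2R.

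*Eda* lies on chrX:99975606-100400762 (ENSMUSG00000059327, plus strand), spans 425.157 kb and has 1.61% of that length in exons. *Edar* lies on chr10:58600789-58675654 (ENSMUSG00000003227, minus strand), *Edaradd* on chr13:12472632-12520438 (ENSMUSG00000095105, minus strand), *Eda2r* on chrX:97333840-97377216 (ENSMUSG00000034457, minus strand) and *Tnfrsf19* on chr14:60963875-61046490 (ENSMUSG00000060548, minus strand). *Eda* overlaps 4 small genes on its own strand, none of which is in the gene list, and *Tnfrsf19* overlaps the antisense RNA Gm41168, which is. Whether the counts include intronic reads is not given in the sources used here, so levels were compared between cells for the same gene and never between genes.

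The 250 bases before the RefSeq start sites were searched on both strands for the core of the LEF/TCF sites through which Wnt signaling acts (CTTTGA or CTTTGT) and for the NF-kB consensus. The promoters of *Eda* and *Edar* are printed here because the levels of both are set beside those of *Lef1*, each on the strand of its gene, with a LEF/TCF core in capitals.
Eda, chrX:99975356-99975605 (GRCm38.p6, plus strand): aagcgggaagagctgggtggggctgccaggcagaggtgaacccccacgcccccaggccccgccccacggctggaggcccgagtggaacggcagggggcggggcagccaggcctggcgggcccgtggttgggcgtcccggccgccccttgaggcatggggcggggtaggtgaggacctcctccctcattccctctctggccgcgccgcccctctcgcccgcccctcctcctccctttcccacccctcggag
Edar, chr10:58675697-58675946 (GRCm38.p6, minus strand): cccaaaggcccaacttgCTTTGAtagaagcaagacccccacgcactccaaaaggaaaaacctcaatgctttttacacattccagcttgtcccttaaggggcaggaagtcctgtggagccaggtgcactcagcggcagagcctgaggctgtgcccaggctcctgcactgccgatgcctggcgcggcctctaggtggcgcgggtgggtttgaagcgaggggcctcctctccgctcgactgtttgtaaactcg
The *Edar* promoter held 1 LEF/TCF core, 233 to 228 bases before the start, and the *Eda* promoter held 0. *Edaradd* had 1 core at 145 to 140 bases before its start, *Tnfrsf19* had 1 at 201 to 196 bases before the second of its start sites, and *Eda2r* had 0. The core was present in 27.6% of all 32851 RefSeq promoters of this length. The NF-kB consensus was in none of these promoters and in 3.90% of all promoters. The *Eda* promoter was 75.6% G and C and that of *Edar* 58.8%, against a median of 52.4% over all promoters. A match is only a run of letters, and its absence says nothing about binding.

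The WT library held 143938990 UMIs, that is, counted mRNA molecules, and the library labelled PADI4 cKO held 143945294. After the cell filters 8070 and 7393 cells were left with median depths of 14670 and 16208 UMIs, of which 8016 and 7345 were epithelial. *Padi4*, the targeted gene, had 99 UMIs in the epithelial cells of the WT library and 89 in those labelled PADI4 cKO, 0.775 (0.630–0.944) and 0.689 (0.553–0.847) CPM (counts per 1000000 UMIs), and these intervals overlap. The 3′ counts do not show the floxed exons. Cells of both sexes were mixed in the WT library alone: 26.1% of the WT cells had UMIs of *Xist* and none of Y-linked genes and 62.3% the reverse, against 98.3% and 0 cells in the other library, and *Eda* and *Eda2r* are X-linked. Markers of other cells were low in the epithelial cells, except those of melanocytes. The summed level of 5 melanocyte genes was 77.3 and 104 CPM, and that of 5 fibroblast genes 8.10 and 7.75 CPM. For 3 genes each of immune, endothelial, dermal papilla and Merkel cells it lay between 0.0157 and 1.48 CPM. Of these lists, 1 immune and 1 Merkel gene were at 0 in the WT library and 2 immune genes in the other. By the larger of estimates from hemoglobin and collagen genes, free RNA was 12.3% of the UMIs in WT cells and 2.69% in the others. Over all epithelial cells it gave at most 8.51% of the UMIs of *Eda*, *Edar*, *Edaradd* or *Tnfrsf19*. In the WT library this came to at most 25.3, 6.62, 4.78 and 16.2 CPM in that order. Where cells had little of a gene, the share of free RNA can be larger. Of the barcodes kept as cells, 14 occurred in both libraries.

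Cells were placed in classes by marker genes, none of which was an ectodysplasin gene. Comparisons used the 15 classes that had 50 or more cells in both libraries: those like the interfollicular epidermis (IFE-like), sebaceous gland (SG-like), upper HF (uHF-like), outer root sheath (ORS-like), lower proximal cup (LPC-like), inner root sheath (IRS-like) and cortex (Cx-like), and others called by their marker genes, such as the Shh cells. The companion-like cells, 27 and 17 of them, were too few. A further 5544 cells met no gate, 1830 of the 9919 gated cells lay near a limit of their gate, and 289 and 300 of all cells were called doublets and kept. The Myb/Gfra3 markers came from an earlier grouping of these cells in which *Eda* was among the leading genes, so the *Eda* level of that class is a description. Intervals are 95% exact Poisson, binomial or conditional intervals and cover counting error only.

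*Eda*, the ligand, was read in the larger part of the epithelial cells, with 418 CPM (interval 414–421) in the WT library and 476 CPM (472–480) in the library labelled PADI4 cKO. UMIs of *Eda* were found in 64.6% and 65.1% of cells, and in 35.7% and 36.5% after each cell was thinned to 2000 UMIs. Of the 20 and 11 fibroblast-like cells, 60% and 54.5% had an *Eda* UMI, and their level was 250 CPM (189–325) and 301 CPM (231–386). In both libraries this value was above that of the ORS-like, LPC-like, SG-like, IFE-like, uHF-like and Acta2/Tagln/Olfml2b cells. Its interval overlapped those of the ORS-like, LPC-like and IFE-like cells in the WT library and of the SG-like cells in the other. The level of those classes thus does not set them above these few cells outside the epithelium. The Myb/Gfra3 cells stood highest, with 1393 CPM (1357–1429) from 194 WT cells and 1331 CPM (1302–1361) from 268 cells of the other library. *Myb* encodes a transcription factor of progenitor cells and *Gfra3* a receptor subunit for a neurotrophic factor. The class was 2.42% and 3.65% of epithelial cells and held 10.9% and 12.7% of their *Eda* UMIs. Within it the level varied between cells, from 231 CPM at the lower decile over a median of 1096 to 2733 at the upper decile in the WT library, and from 180 over 1087 to 2824 in the other.

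The Dcn/Dlx4/Cldn10 cells came next with 889 and 961 CPM of *Eda* and the Krtap8-1/Mt4 cells, which carry a hair keratin-associated protein gene of the differentiating shaft, followed with 596 and 707 CPM. The Shh cells had 483 and 611 CPM and the Sp5/Frem1/Wnt7a cells 496 and 586 CPM, and this pair was not separated in either library. The order then ran through the IRS-like cells (346 and 358 CPM), the Cx-like cells (313 and 289), the Slit3/Ret/Cdo1 cells (270 and 248), the Lmo3/Adamts19 cells (271 and 207), the ORS-like cells (243 and 195) and the LPC-like cells (207 and 200). The SG-like (142 and 238), IFE-like (189 and 151) and uHF-like cells (121 and 162) were lower still, and the Acta2/Tagln/Olfml2b cells, with smooth muscle genes, were lowest at 114 and 111 CPM. The highest class lay 12.2-fold above the lowest in the WT library and 12.0-fold in the other. Besides the Shh and Sp5/Frem1/Wnt7a cells, the intervals of the Lmo3/Adamts19 and ORS-like cells overlapped in both libraries, those of a further 7 neighboring pairs in 1 library only, and those of the remaining 5 pairs in neither.

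*Edar*, the receptor of the longer form, had 90.0 CPM (88.4–91.7) and 109 CPM (108–111) over all epithelial cells and UMIs in 37.8% and 42.2% of them. It was highest in the Sp5/Frem1/Wnt7a cells, at 371 CPM (351–391) from 158 WT cells and 449 CPM (431–468) from 213 cells of the library labelled PADI4 cKO. *Sp5* is a target of Wnt signaling, *Frem1* encodes a basement membrane protein and *Wnt7a* a Wnt ligand. In that class 94.3% and 97.7% of cells had an *Edar* UMI, and 51.9% and 54.5% did so at 2000 UMIs per cell, with median levels per cell of 333 and 401 CPM. The class held 11.9% and 16.0% of the *Edar* UMIs in 1.97% and 2.90% of the cells. The Shh cells, defined by the gene of the hedgehog ligand that the EDAR pathway can induce, were second with 264 and 282 CPM and the LPC-like cells next with 125 and 139 CPM. These classes did not overlap the next in either library.

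Below them *Edar* lay at 109 and 113 CPM in the Dcn/Dlx4/Cldn10 cells, 90.8 and 105 in the SG-like cells, 95.5 and 99.1 in the Myb/Gfra3 cells and 73.6 and 69.2 in the uHF-like cells. The Lmo3/Adamts19 cells had 50.9 and 45.8 CPM and the IFE-like cells 47.3 and 34.9 CPM. The other classes lay between 10.3 and 35.8 CPM: the Krtap8-1/Mt4, Slit3/Ret/Cdo1, Cx-like, IRS-like, ORS-like and Acta2/Tagln/Olfml2b cells. The last had 11.5 CPM in the WT library, where free RNA could give up to 6.62 CPM. The ORS-like cells had UMIs of *Edar* in 13.8% and 12.5% of cells at median depths of 9162 and 10287 UMIs, against 19924 and 21148 UMIs in the Sp5/Frem1/Wnt7a cells. Of the fibroblast-like cells, 2 of 20 and 0 of 11 had one.

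**Figure D1:**
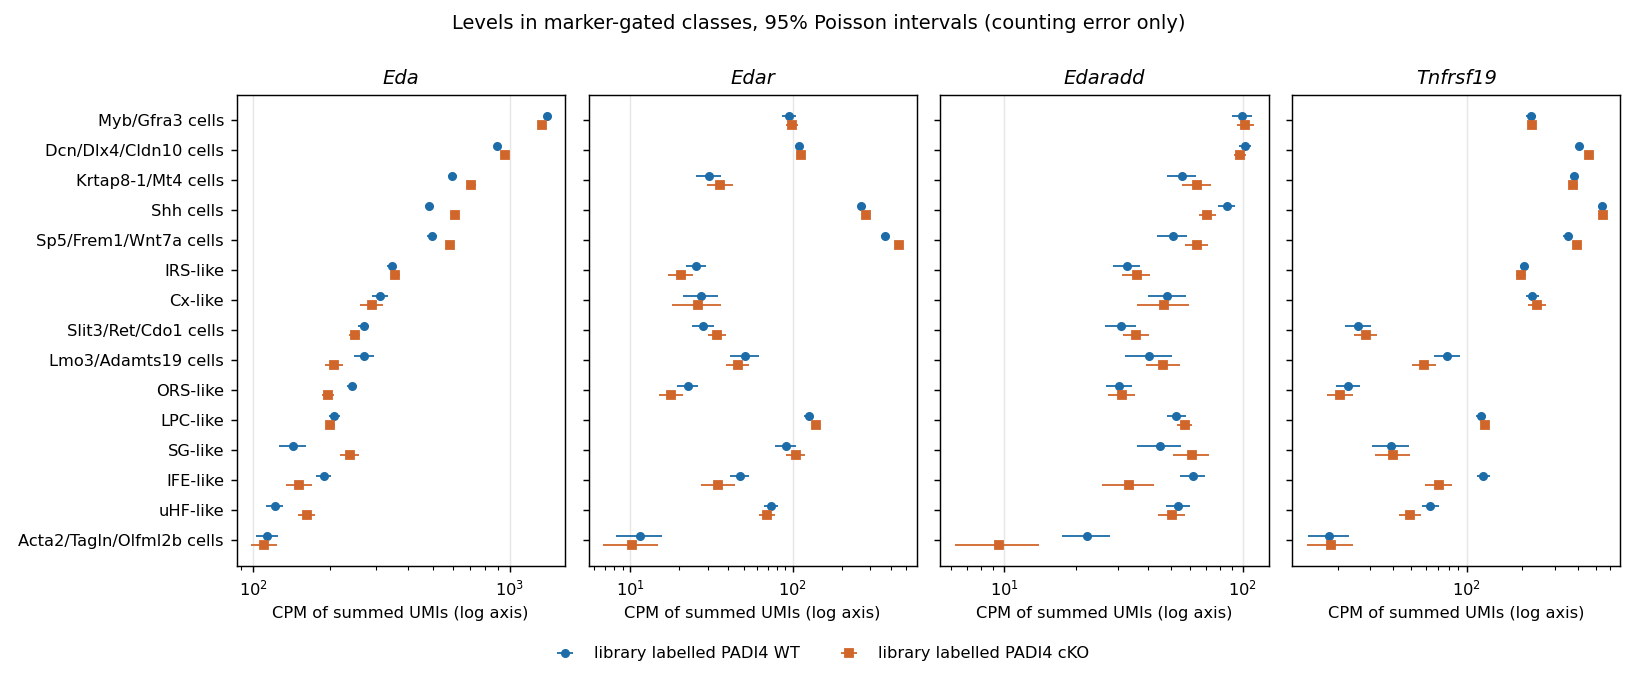
CPM of summed UMIs (log axis) of *Eda*, *Edar*, *Edaradd* and *Tnfrsf19* in the marker-gated classes, with 95% Poisson intervals for counting error and a symbol for each library. *Eda* peaked in the Myb/Gfra3 cells at 1393 and 1331 CPM, *Edar* in the Sp5/Frem1/Wnt7a cells at 371 and 449 CPM and *Tnfrsf19* in the Shh cells at 542 and 547 CPM.

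*Edaradd*, the adaptor that couples EDAR to TRAF6, had 57.9 CPM (56.6–59.2) and 59.1 CPM (57.8–60.5) over the epithelial cells and UMIs in 45.5% and 48.6% of them. Its highest class lay 4.61-fold above its lowest in the WT library and 10.7-fold in the other, against 32.2-fold and 43.7-fold for *Edar*. It was highest in the Myb/Gfra3 cells (99.1 and 103 CPM) and the Dcn/Dlx4/Cldn10 cells (102 and 97.4 CPM), whose intervals overlapped in both libraries. The Shh cells had 85.6 and 71.2 CPM, the Krtap8-1/Mt4 cells 55.6 and 64.1 CPM, the Sp5/Frem1/Wnt7a cells 50.9 and 64.4 CPM and the LPC-like cells 52.7 and 57.2 CPM. The class highest for *Edar* was thus near the epithelial level for the adaptor. The lowest values were in the ORS-like cells, at 30.4 and 31.1 CPM, and in the Acta2/Tagln/Olfml2b cells, at 22.2 and 9.56 CPM.

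*Tnfrsf19* had 191 CPM (188–193) and 209 CPM (206–211) over the epithelial cells, with UMIs in 55.3% of cells of both libraries. It was highest in the Shh cells, with 542 CPM (524–559) and 547 CPM (531–564) and UMIs in 97.2% and 97.8% of cells. The Dcn/Dlx4/Cldn10 cells followed with 405 and 461 CPM, the Krtap8-1/Mt4 cells with 381 and 378 CPM and the Sp5/Frem1/Wnt7a cells with 352 and 397 CPM. The Cx-like, Myb/Gfra3 and IRS-like cells lay between 196 and 240 CPM. The LPC-like cells had 119 and 126 CPM and the IFE-like cells 123 and 70.4 CPM. The Lmo3/Adamts19, uHF-like, SG-like, Slit3/Ret/Cdo1, ORS-like and Acta2/Tagln/Olfml2b cells had 17.9 to 78.0 CPM. Free RNA could give up to 16.2 CPM in the WT library, so the lowest of these values lie near that level.

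*Eda2r*, the receptor of the shorter form, was close to the limit of the assay. It had 109 UMIs in the WT epithelial cells and 93 in the others, 0.854 and 0.720 CPM, in 1.11% and 0.967% of cells. Droplets without a cell gave 0.820 and 0.648 CPM, from 5 UMIs in each library, so the levels in cells and in empty droplets were not told apart. As free RNA comes from the cells themselves, like levels do not show that the UMIs in cells were free RNA. By the larger of the estimates, free RNA gave at most 11.9% and 2.43% of the *Eda2r* UMIs. No pair of neighboring classes separated. The Sp5/Frem1/Wnt7a cells had 6 and 9 UMIs (1.63 and 1.78 CPM). The IFE-like cells had 10 UMIs in the WT library and 0 of 145 cells with a UMI in the other, which, taken as 3 counts of the total, allows a share of cells with a UMI of up to 2.07% and sets no limit on the cells that express the gene, and the SG-like cells had 0 UMIs in both.

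The classes with most ligand and most receptor were not the same. From the Myb/Gfra3 cells to the Sp5/Frem1/Wnt7a cells, *Eda* was lower by a log2 ratio of −1.49 (−1.57 to −1.41) in the WT library and −1.18 (−1.25 to −1.12) in the other, whereas *Edar* was higher by 1.95 (1.79–2.12) and 2.18 (2.05–2.32). As the classes were chosen for these levels, the ratios are descriptions. Among 10046 genes, 5.62% were at least 2-fold higher in the Sp5/Frem1/Wnt7a cells in both libraries and 1.73% at least 2-fold lower, while 2.32% were higher by at least as much as *Edar* and 1.29% lower by at least as much as *Eda*. Of the genes not used for the choice, *Edaradd* and *Tnfrsf19* were less far apart, with log2 ratios of −0.96 (−1.22 to −0.71) and −0.67 (−0.87 to −0.48) for *Edaradd* and of 0.66 (0.54–0.79) and 0.82 (0.72–0.92) for *Tnfrsf19*. Neither reached 2-fold. *Eda2r* was at 1.57 (−0.71 to 5.11) and 1.01 (−0.67 to 2.99), from 6 and 2 UMIs in the WT library and 9 and 5 in the other, too few to read a direction.

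The Shh cells stood to the Myb/Gfra3 cells in the same way. *Edar* was higher in them by 1.46 (1.31–1.62) and 1.51 (1.38–1.65), *Tnfrsf19* by 1.28 in both libraries, and *Eda* lower, at −1.53 (−1.59 to −1.46) and −1.12 (−1.18 to −1.07). At least 2-fold higher in both libraries were 3.12% of genes, and 1.49% were at least 2-fold lower. Compared with the LPC-like cells, the Sp5/Frem1/Wnt7a cells had more of the ligand (1.26 and 1.55), of *Edar* (1.56 and 1.69) and of *Tnfrsf19* (1.56 and 1.66), where 2.87% of genes were at least 2-fold higher and 2.75% lower, while *Edaradd* was at −0.05 (−0.30 to 0.20) and 0.17 (−0.02 to 0.36). Between the Sp5/Frem1/Wnt7a and Shh cells, *Eda* was at 0.04 (−0.05 to 0.12) and −0.06 (−0.13 to 0.00), *Edar* was higher in the former by 0.49 and 0.67, and *Tnfrsf19* lower, at −0.62 and −0.46, none by 2-fold in both (background 3.63% higher and 1.33% lower).

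**Figure D2:**
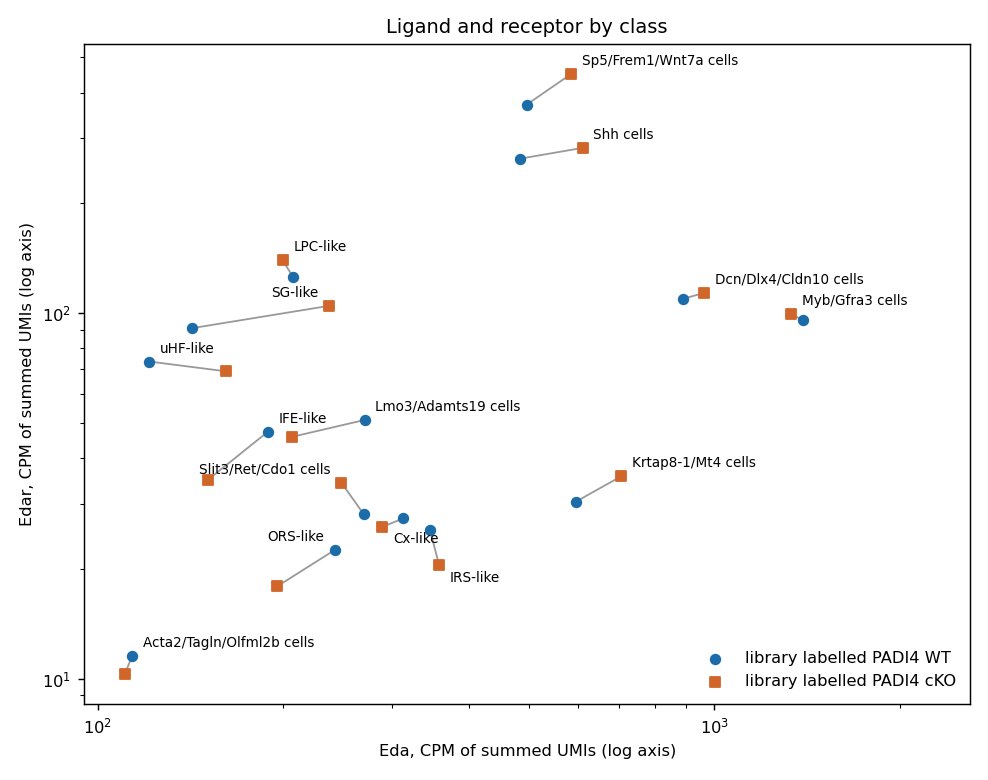
*Eda* (x axis) against *Edar* (y axis), both as CPM of summed UMIs on log axes, with 1 symbol per class and library and grey lines that join the libraries of a class. The Myb/Gfra3 cells lie farthest right with *Edar* at 95.5 and 99.1 CPM, and the Sp5/Frem1/Wnt7a cells lie at the top with *Eda* at 496 and 586 CPM.

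Ligand and receptor were nonetheless read in the same cells. UMIs of both genes were found in 28.8% of WT epithelial cells and in 33.1% of those labelled PADI4 cKO. In the WT library 44.6% (43.2–45.9%) of *Eda*-positive cells had an *Edar* UMI, against 25.3% (23.7–27.0%) of *Eda*-negative cells. In the other library these shares were 50.9% (49.4–52.3%) and 26.0% (24.3–27.7%). Deeper cells have more UMIs of every gene, and at 2000 UMIs per cell the shares came to 16.3% against 10.6% and to 17.8% against 10.9%.

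Within the receptor-rich classes this difference was not found at equal depth. In the Sp5/Frem1/Wnt7a cells 82.3% and 90.6% of cells had UMIs of both genes. Thinned, 50% of *Eda*-positive and 53.8% of *Eda*-negative WT cells had an *Edar* UMI, and 52.4% and 57.3% in the other library, with intervals that overlapped. The Shh cells had 40.1% against 38.6% and 31.4% against 36.3%. In the Myb/Gfra3 cells *Edar* was read in 17.9% of the thinned *Eda*-positive cells of either library, against 2.33% (0.0589–12.3%) and 8.20% (2.72–18.1%) of *Eda*-negative cells, of which the WT library had 43 with 1 that held an *Edar* UMI.

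Because the ligand is under Wnt control in the hair placode, the cells were also split by their UMIs of *Lef1*, a transcription factor of the Wnt pathway, after thinning to 2000 UMIs. *Eda* stood at 283 CPM in the WT cells without a *Lef1* UMI, at 590 CPM with 1, at 720 CPM with 2 to 3 and at 711 CPM with 4 or more. In the library labelled PADI4 cKO the levels were 306, 671, 837 and 785 CPM. *Tnfrsf19* went up through all the bins, from 98.8 over 278 and 397 to 456 CPM and from 99.2 over 306 and 419 to 505 CPM. *Edar* was highest at 2 to 3 *Lef1* UMIs, with 64.1, 137, 147 and 119 CPM in the WT library and 78.4, 163, 167 and 142 CPM in the other. *Edaradd* went from 46.1 CPM in the first bin of both libraries to 86.7 and 82.8 CPM in the last. The bins held 489 to 5440 cells each. Median depth differed between them, at 13900, 16224, 16211.5 and 15974.5 UMIs in the WT library and 14658, 18640, 19999 and 18736 in the other. Depth, *Eda* and *Edar* all had their largest step between 0 and 1 *Lef1* UMI. In the library labelled PADI4 cKO all of them were highest at 2 to 3. *Lef1* itself differed between classes, with 21.0 and 22.3 CPM in the ORS-like cells and 1865 and 1697 CPM in the Krtap8-1/Mt4 cells. The Myb/Gfra3 cells, highest in *Eda*, had 448 and 477 CPM of *Lef1*, near the 433 and 443 CPM over all epithelial cells. The Shh cells had more *Lef1*, 1014 and 1063 CPM, and less *Eda* than the Myb/Gfra3 cells. The order of the classes by *Eda* was thus not their order by *Lef1*. The classes within each bin were not counted. The parts of depth and class in these values were not tested.

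Cells were split by UMIs of *Shh* in the same way. Because *Shh* alone defines the Shh cells, this split is not independent of the levels given for that class. *Edar* stood at 78.9 CPM in WT cells without a *Shh* UMI, 214 CPM with 1 and 240 CPM with 2 or more, and at 95.5, 248 and 241 CPM in the other library. *Tnfrsf19* went from 168 over 453 to 499 CPM and from 181 over 472 to 513 CPM. *Eda* did not follow: it was highest with 1 *Shh* UMI, at 557 and 590 CPM, and at 322 CPM with 2 or more in the WT library, below the 412 CPM of cells without, but at 536 CPM against 466 in the library labelled PADI4 cKO. The last bin held 175 and 148 cells.

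**Figure D3:**
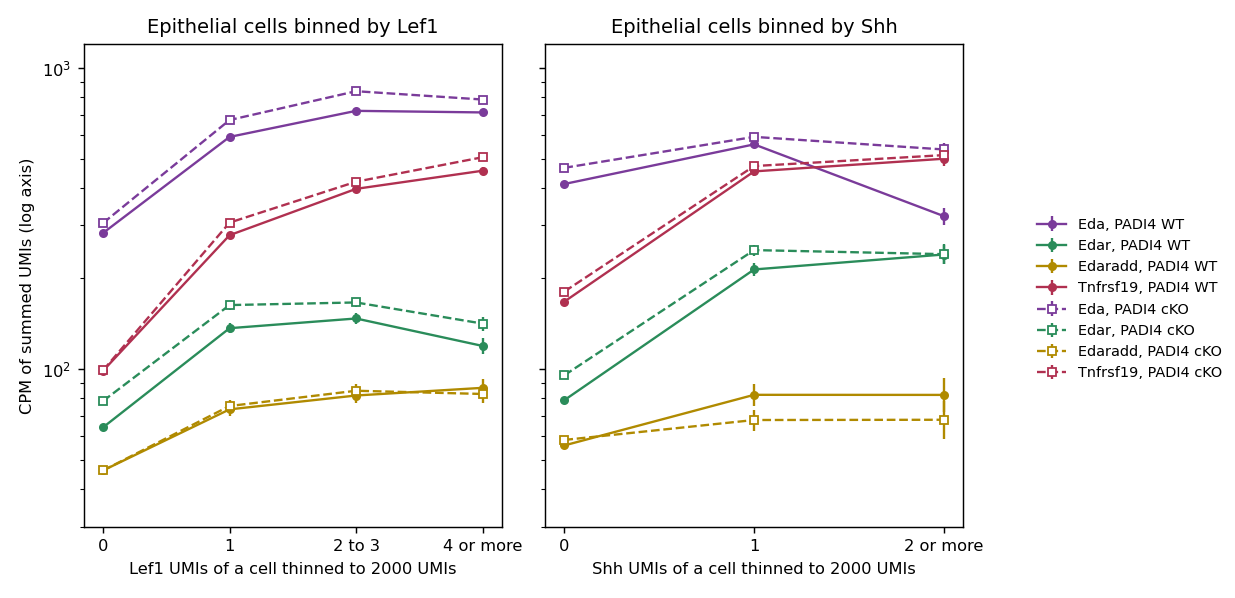
CPM of summed UMIs (log axis) of *Eda*, *Edar*, *Edaradd* and *Tnfrsf19* in epithelial cells grouped by their *Lef1* or *Shh* UMIs after thinning to 2000 UMIs, with 95% Poisson intervals. *Tnfrsf19* reaches 456 and 505 CPM at 4 or more *Lef1* UMIs, and *Edar* reaches 240 and 241 CPM at 2 or more *Shh* UMIs.

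The genes with levels most like each ectodysplasin gene were ranked by Pearson's r of log2 CPM over the 15 classes of both libraries, 30 points that share libraries and depth, among 12049 genes, as a description. *Eda* was nearest to *Maco1* (0.88), *Robo1* (0.88), an axon guidance receptor, and *Glcci1* (0.87). *Edar* was nearest to *Stx17*, *1190007I07Rik* and *Usp48*, each at 0.86. *Edaradd* was nearest to *Xrn2* (0.85), *Dusp9* (0.84) and *Tspan18* (0.84). *Tnfrsf19* was nearest to *Pkp4* (0.97), which encodes a protein of cell junctions, *Bmp4* (0.96), a ligand gene of the hair follicle, and *Nup210* (0.96). For *Eda2r*, with its few UMIs, *Cxcl10* came first at 0.71. Between the ectodysplasin genes themselves r was 0.45 for *Eda* with *Edar*, 0.73 for *Eda* with *Edaradd*, 0.77 for *Eda* with *Tnfrsf19* and 0.71 for *Edar* with *Edaradd*.

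The libraries were then set side by side, as the log2 ratio of the library labelled PADI4 cKO over WT, with a threshold of 0.5. The study used this log2 fold change within clusters, together with a limit on the adjusted P value of a Wilcoxon rank sum test. Here it was applied alone, to summed UMIs, so a value past 0.5 does not equal a call of the study. Over all epithelial cells *Eda* was at 0.19 (0.17–0.21), *Edar* at 0.28 (0.25–0.32), *Tnfrsf19* at 0.13 (0.10–0.15), *Edaradd* at 0.03 (−0.02 to 0.08) and *Eda2r* at −0.25 (−0.66 to 0.17). None of the 5 was past 0.5 in either direction, where 1.63% of 14950 genes lay above and 3.79% below, and the median gene was at −0.014. The libraries held different shares of the classes. With the class shares of the WT library given to both, a setting added after the values were seen, *Edar* was at 0.15, *Eda* at 0.15 and *Tnfrsf19* at 0.11, and at 2000 UMIs per cell *Edar* was at 0.13 and *Tnfrsf19* at 0.015. With the UMIs of empty droplets subtracted, *Eda* was at 0.11 and *Tnfrsf19* at 0.081. *Edaradd* turned negative under each of these settings, at −0.053, −0.022 and −0.0066 in the order thinned, subtracted and with WT shares. *Eda2r* was at 0.38 in cells with *Xist* and no Y-linked UMIs. Within the WT library, cells with *Xist* and cells with Y-linked UMIs differed in *Eda* by 0.04 (0.01–0.07) and in *Eda2r* by −0.85 (−1.73 to −0.11), the latter from few UMIs, where 4.06% of 13413 genes were below −0.5 and 1.66% above 0.5.

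By class, the ratio of *Eda* was above 0 in 7 of 15 classes and that of *Edar* in 8 of the 14 with at least 100 UMIs. In the ligand-rich Myb/Gfra3 cells *Eda* was at −0.06 (−0.11 to −0.02), and it was at 0.34 (0.27–0.40) in the Shh cells, 0.25 (0.16–0.33) in the Krtap8-1/Mt4 cells, 0.24 (0.15–0.32) in the Sp5/Frem1/Wnt7a cells and 0.41 (0.26–0.57) in the uHF-like cells. On the other side were the ORS-like cells at −0.31 (−0.41 to −0.21) and the Lmo3/Adamts19 cells at −0.39 (−0.56 to −0.22). *Edar* was at 0.28 (0.18–0.38) in the Sp5/Frem1/Wnt7a cells, 0.10 (0.01–0.19) in the Shh cells and 0.15 (0.04–0.26) in the LPC-like cells.

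Of the 59 values of a gene in a class, leaving out *Eda2r*, 4 were past 0.5. Over all genes and classes 2.24% of values were above 0.5 and 2.91% below −0.5. *Eda* in the SG-like cells was at 0.74 (0.53–0.95), from 279 UMIs in 128 cells and 525 UMIs in 146 cells, where 3.14% of genes were above 0.5. The 10 cells with most *Eda* held 44.1% and 48.6% of these UMIs, and the median cell had 46.5 CPM in the WT library and 0 in the other, so the summed level and the median cell went opposite ways. Without called doublets, 5 and 11 cells, the value was 0.60 (0.35–0.84). In the IFE-like cells *Edaradd* was at −0.88 (−1.29 to −0.49) and *Tnfrsf19* at −0.80 (−1.08 to −0.53), from 337 and 145 cells, where 7.63% of genes were below −0.5. *Tnfrsf19* there was at −0.36 (−0.81 to 0.04) with stricter gates and at −0.48 in cells with *Xist* and no Y-linked UMIs. In the Acta2/Tagln/Olfml2b cells *Edaradd* was at −1.20 (−1.91 to −0.56), from 77 and 26 UMIs, where 3.32% of genes were below −0.5.

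**Figure D4:**
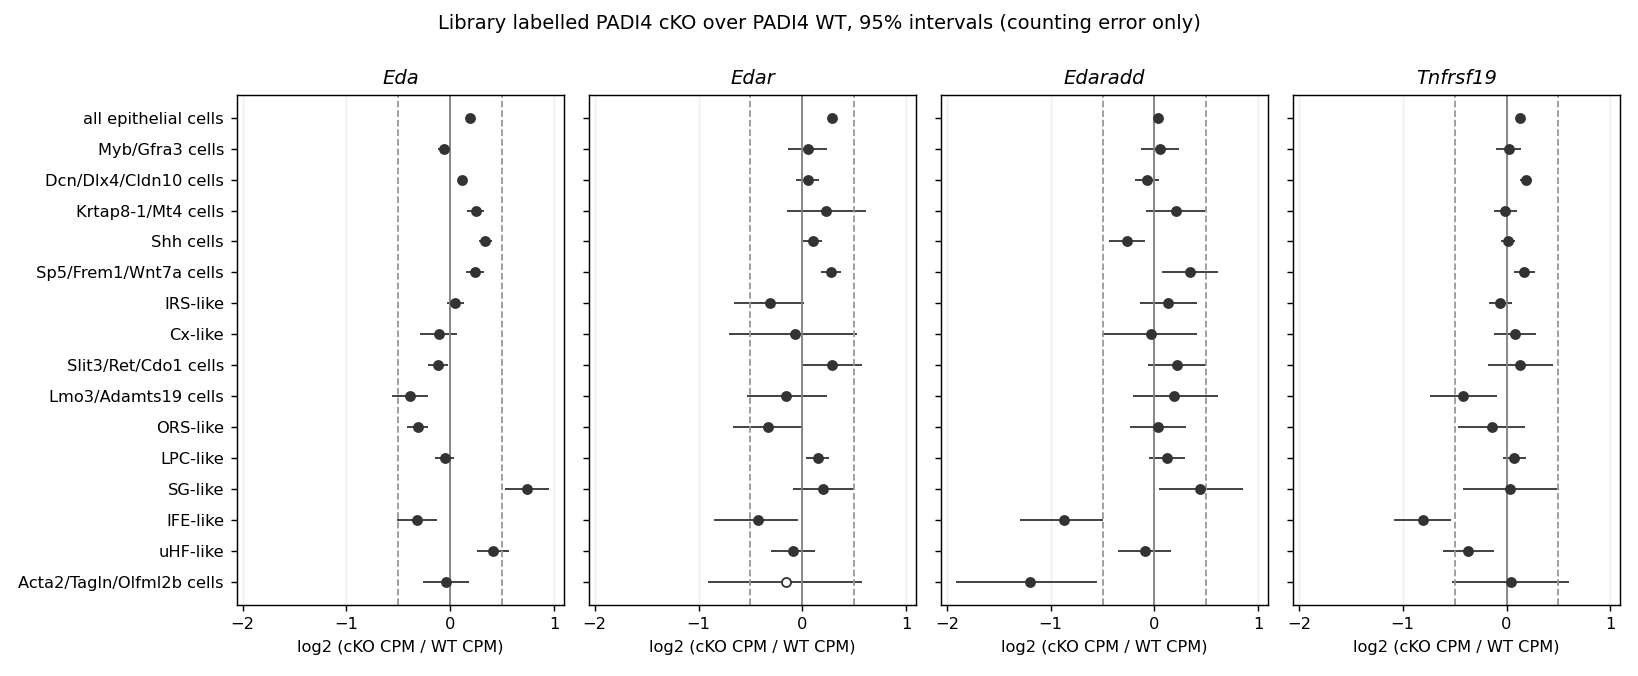
Log2 ratio of CPM, library labelled PADI4 cKO over WT, of *Eda*, *Edar*, *Edaradd* and *Tnfrsf19* over all epithelial cells and in each class, with 95% intervals for counting error. Most values lie between −0.5 and 0.5, with *Eda* in the SG-like cells at 0.74 and *Edaradd* in the Acta2/Tagln/Olfml2b cells at −1.20 among the exceptions.

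Of the other genes of the pathway, 44 were listed from background knowledge, with earlier results of these data known, and 36 had at least 100 UMIs. Between the libraries 1 of the 36 was above 0.5, where 1.63% of all genes were, and 1 below −0.5, where 3.79% were, so these counts are near the background and are no result about the list. *Tnf*, the founding ligand of the family, was at 0.66 (0.53–0.78; 6.51 and 10.3 CPM), and *Fst*, an activin antagonist and EDAR target, was at −0.71 (−0.74 to −0.68; 155 and 95.2 CPM). Of the 14 signal transducers, *Traf6* and *Rela* among them, 0 were past 0.5. Only 5 of them had the same highest class in both libraries, and for 3 of these it was the Shh cells. *Furin*, which releases the ligand, was highest in the ORS-like cells at 49.8 and 58.6 CPM.

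Of the 36 genes, 9 were highest in the Shh cells in both libraries, against 1.16% of all genes, and *Shh* itself is the gene that defines them. As the list was made with earlier results of these data known, this count is a description. The others were *Traf3*, *Nfkb2*, *Relb*, *Nfkbia*, *Nfkbie*, *Tnfaip3*, *Wnt10b* and *Relt*. *Nfkbia*, which encodes the inhibitor that holds NF-κB in the cytoplasm and is itself an NF-κB target, had 336 and 357 CPM in the Shh cells and 154 and 190 CPM over all epithelial cells. *Relb*, an NF-κB subunit, had 54.4 and 51.9 CPM against 17.0 and 18.7 CPM, and *Wnt10b*, a Wnt ligand of the placode, 148 and 151 CPM against 26.9 and 30.1 CPM. *Tnfaip3*, a brake on TRAF signaling, had 20.4 and 22.0 CPM against 10.8 and 14.4 CPM. These were the cells highest in *Tnfrsf19* and second in *Edar*. *Nfkbia* was lower, at 197 and 313 CPM, and *Relb* too, at 25.8 and 40.4 CPM, in the Sp5/Frem1/Wnt7a cells, which had the most *Edar*. *Tnf* was at 38.5 and 41.1 CPM in the Shh cells and 19.0 and 43.6 CPM in the Sp5/Frem1/Wnt7a cells. Over all epithelial cells it was at 6.51 and 10.3 CPM. Which ligand or receptor bears on these levels was not tested.

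In the Sp5/Frem1/Wnt7a cells, highest in *Edar*, 3 of the 36 list genes peaked in both libraries, against 2.68% of all genes. So small a count, from a list made with earlier results of these data known, is no result about the list. The 3 genes were *Foxi3* (9.52 and 10.3 CPM), a transcription factor of skin appendages, *Fgf20* (3.26 and 2.38 CPM), a growth factor of the placode, and *Tcf7* (34.8 and 44.2 CPM), a Wnt factor. *Fgf20* rests on few counts, with 121 UMIs over all epithelial cells of both libraries. In the Myb/Gfra3 cells, highest in *Eda*, 0 list genes peaked in both libraries, against 3.18% of all genes. For a list of this size that is near the background and is no result about the list. *Lef1* was highest in the Krtap8-1/Mt4 cells, at 1865 and 1697 CPM, and the EDAR targets *Fst* and *Sostdc1* in the uHF-like cells, where *Eda* was near its lowest.

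**Figure D5:**
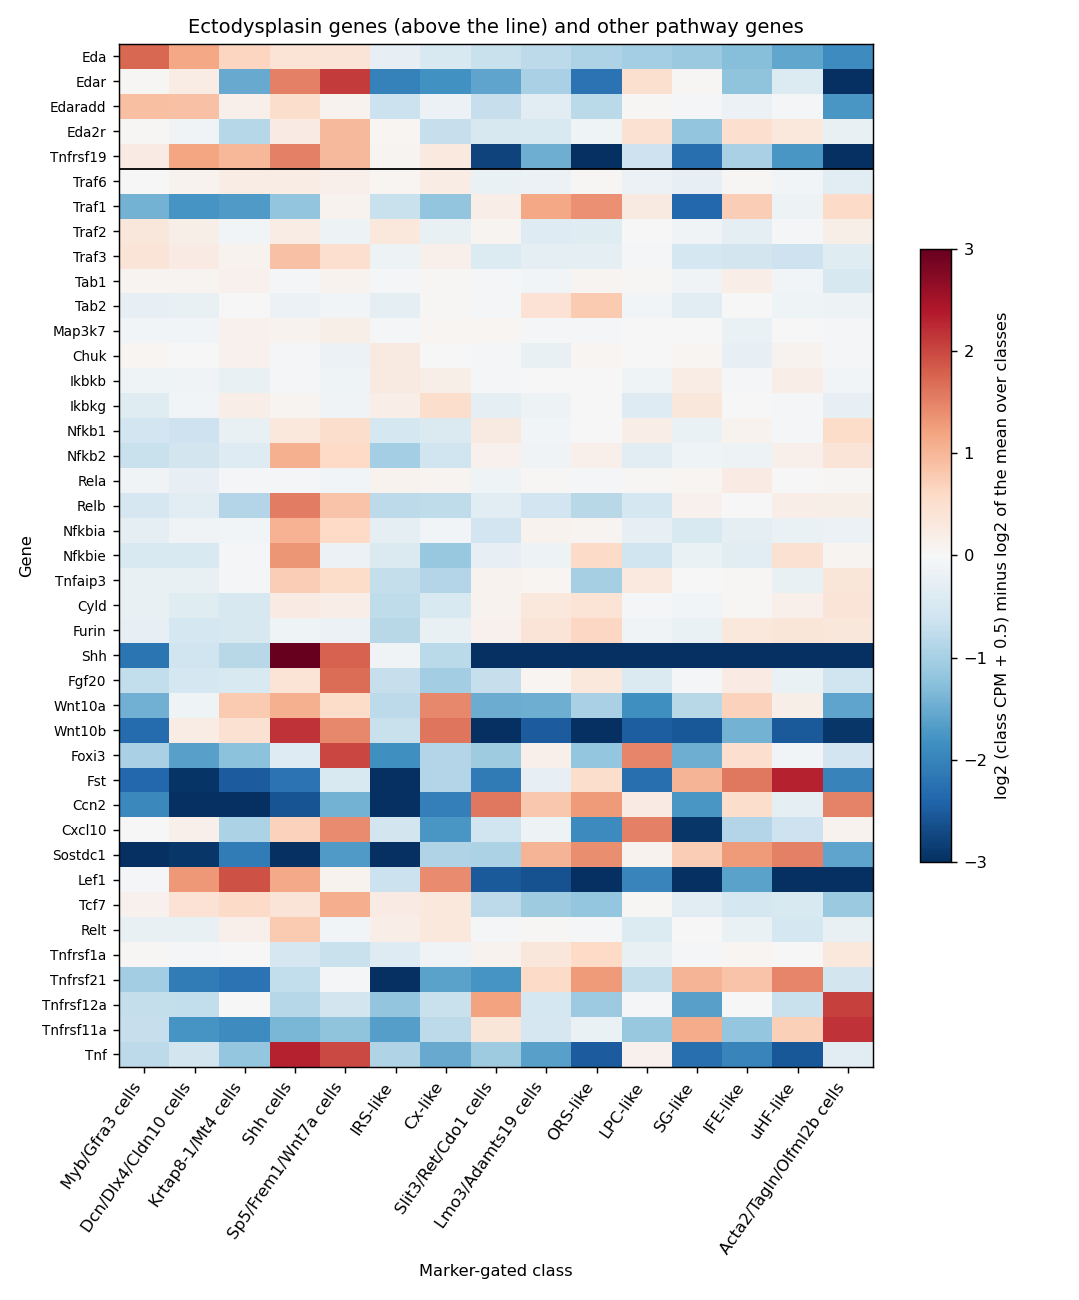
Levels of the ectodysplasin genes (above the line) and of other pathway genes in the 15 classes, colored by the log2 of the mean CPM of the libraries plus 0.5 relative to the mean of the gene over all classes, with colors capped at both ends of the scale. The Shh column holds the highest level of 9 pathway genes in both libraries and the Sp5/Frem1/Wnt7a column that of 3.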

How the data were processed

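Single-cell 3′ libraries (Chromium v3.1) were sequenced, and per the file headers the authors ran Cell Ranger 7.1.0. The deposited values are raw counts: whole numbers of UMIs for each gene in each barcode, empty droplets among them. The submitters' processing notes name the mm10 build. The annotation and the counting of intronic reads are not given in the sources used here.

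The limits for a cell were 2000 and 60000 UMIs, 1000 and 8000 genes, 20% mitochondrial UMIs, 1% hemoglobin UMIs and, for ribosomal UMIs, percentiles 5 and 99. They removed 8.14% and 6.20% of the barcodes with at least 2000 UMIs. CellBender and Harmony were not run. Doublets were scored per library. The automatic threshold called 1 WT cell, so 0.193, the threshold found in the other library, served for both and called 3.58% and 4.06% of cells. A cell was placed in the class with the highest mean marker score where that z score was at least 1 and led the next by 0.5, and 2 markers had a UMI. Fibroblast-like and melanocyte-like cells needed a z score of 3 and 3 markers, and were left out of the epithelial cells.

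Levels are CPM of the UMIs summed over cells. Ratios had 0.5 UMI added to each sum, genes needed at least 100 UMIs, and no significance test was made, since there was 1 library per genotype and cells are not replicates. The log2 ratio between libraries and its interval were checked on simulated counts with known ratios. The named genes are the 5 ectodysplasin genes, the listed pathway genes with at least 100 UMIs, and the 3 genes with the highest r among those with at least 500 UMIs. All genes, lists and marker genes were chosen with earlier results of these data known. The alternatives were other UMI limits, no doublets, Leiden classes (resolution 1.5), stricter gates, thinned cells, subtraction of empty-droplet UMIs, no mitochondrial and ribosomal protein genes, *Xist*-only cells, 1 UMI added and a minimum of 50 UMIs. Python 3.11.15, SciPy 1.17.1 and Scanpy 1.11.5 were used. Gene positions came from a GENCODE annotation of GRCm38, and promoters from RefSeq.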

Additional observations from a re-analysis of the deposited data

Results flagged for a closer look

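The melanocyte-like cells were left out of every comparison and still held UMIs of 4 of the 5 ectodysplasin genes, with *Eda2r* at 0. *Eda* was at 652 CPM (592–716) in the 37 melanocyte-like cells of the library labelled PADI4 cKO, from 440 UMIs, and at 451 CPM (393–515) in the 34 of the WT library, from 219 UMIs, with UMIs in 70.3% and 38.2% of these cells. *Tnfrsf19* was at 308 CPM (268–353) and 220 CPM (181–266), from 208 and 107 UMIs. *Edar* was at 69.6 and 70.0 CPM, from 47 and 34 UMIs, and *Edaradd* at 65.2 and 43.3 CPM, from 44 and 21 UMIs. In the library labelled PADI4 cKO *Eda* and *Tnfrsf19* lay above their levels over all epithelial cells, 476 and 209 CPM, whereas in the WT library the epithelial levels, 418 and 191 CPM, lay within the intervals of the melanocyte-like cells. These cells were few, none was a replicate, and whether epithelial RNA in their droplets took part was not tested.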

How the results depend on the processing

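The class with the highest mean level of a gene over the libraries stayed above the other epithelial cells in 36 of 36 alternative values. The ligand and receptor classes kept their direction in 36 of 36, and the ratios between the libraries in 41 of 45. As the classes were chosen by their levels in the same cells, the counts for the classes do not test that choice. Whether a class stayed the highest was not asked. For *Edaradd* the class was the Myb/Gfra3 cells. No paired analysis was possible because there was 1 library per genotype, and no replicate could be left out. Values of the highest class were log2 1.73 for *Eda*, 2.23 for *Edar*, 0.83 for *Edaradd* and 1.61 for *Tnfrsf19*. With Leiden classes, whose ligand class had 1706 cells against 462 and receptor class 687 against 371, they were 1.79, 2.06, 1.01 and 1.84. Thinned, the last 3 were 2.42, 0.67 and 1.82. *Eda* was at 1.77 without doublets, 1.75 with empty-droplet UMIs subtracted and 1.66 in *Xist*-only cells, *Edar* at 2.32 with stricter gates, and *Tnfrsf19* at 1.66 without doublets, 1.68 with stricter gates and 1.66 with subtraction.

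Between the ligand and receptor classes, *Eda* (−1.49 WT and −1.18) was at −1.07 and −0.94 with Leiden classes, and in the WT library at −1.57 with stricter gates and −1.27 thinned. *Edar* (1.95 WT and 2.18) was at 1.39 and 1.36 with Leiden classes and 2.18 and 1.89 thinned, and in the WT library at 2.18 with stricter gates and 1.73 in *Xist*-only cells. Between libraries, thinning gave 0.13 for *Eda* and *Edar*, −0.053 for *Edaradd* and 0.015 for *Tnfrsf19*. Subtraction gave 0.11, 0.22, −0.022 and 0.081 in the same order. *Xist*-only cells gave 0.17 for *Eda*, 0.32 for *Edar*, 0.38 for *Eda2r* and 0.17 for *Tnfrsf19*. The class shares of the WT library gave 0.15 for *Eda* and *Edar*. The cause of these shifts was not tested. With a minimum of 50 UMIs, 2.52% of genes were above 0.5 and 5.10% below −0.5. The share of *Eda*-positive cells with an *Edar* UMI was 16.3% and 17.8% thinned, and in the WT library 46.1% with a limit of 4000 UMIs and 41.7% in *Xist*-only cells. At this depth *Eda2r*, with 109 and 93 UMIs, could not be placed in any class.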
